A study of Homo sapiens with 4 samples.

Results

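The 10 genes described here are 3 Notch receptors (NOTCH1, NOTCH2, NOTCH3), 3 ligands (JAG1, JAG2, DLL1) and 4 genes that Notch signalling switches on (HES1, HES4, HEY1, NRARP). They were taken by symbol, a rule that uses no measured value, although the list was chosen with earlier results of these data known. All 10 are among the 26506 gene symbols of both tables. RNA was sequenced from HeyC2 and SKOV3, both established lines from ovarian cancer. Cells of each line received either the plasmid pCMV6/TET1, in which a CMV promoter drives the DNA demethylase TET1, or an empty plasmid as control. All 4 cultures were kept under Geneticin, so the controls also carry transfection and selection, and the labels call their genotype Wild-type. With 1 library per condition and line, no difference within a line has a replicate check, and none was tested. A fit across both lines with the line as a term, which would leave 1 residual degree of freedom, was not run. Values are FPKM, which correct the number of fragments for transcript length and library size, so levels of different genes can be compared per length. As these are bulk RNA samples, fewer cells with a transcript and less of it per cell cannot be told apart.

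Notch receptors are cell surface proteins that are cut when a ligand on a neighbouring cell binds them. ADAM proteases and γ-secretase release the intracellular part, which enters the nucleus, joins the DNA-binding protein RBPJ and a Mastermind coactivator, and turns on genes of the HES and HEY families. These encode repressors of transcription, while NRARP encodes a small protein that dampens the pathway. In ovarian carcinoma the pathway is best known for NOTCH3, which is amplified in a share of high-grade serous tumours, and for JAG1.

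Of the members that reached a mean of 1 FPKM in HeyC2, HES1 alone was at least 1.5-fold from the all-gene median, and it was lower with TET1. In SKOV3, NOTCH3, JAG1, HEY1 and NRARP were higher with TET1, and HES4 and JAG2 were lower. NOTCH3 reached that mean only through the TET1 library, and the calls of JAG2, HEY1 and NRARP were lost under some other processing. Of all genes, 20.7% were higher and 18.2% lower in SKOV3, and 12.5% and 9.19% in HeyC2. NOTCH1 and NOTCH2 stayed within 1.5-fold of the median in both lines. NRARP, close to silent in the HeyC2 control, was also higher in HeyC2 with TET1, but at a mean FPKM below 1.

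The promoters of the members were searched for the letters that RBPJ recognises, the core TGGGAA, where a match describes the sequence and not binding. The core was searched on both strands in the 250 bases before the start of each gene, as RefSeq gives it (GRCh38.p14). Of the 10 members, 8 had a promoter in the RefSeq table (all but DLL1 and HEY1). The core lies 2 times in HES1, at bases -84 to -79 and -70 to -65 counted from the start, and at -76 to -71 in HES4. The HES4 core overlaps the end of the gene as GENCODE annotates it on GRCh37 (934342 to 935552), so it is upstream only of the RefSeq start. It was found in 2 of 8 members, against 21.1% of 27305 promoters of the same length. Only 2.9% of these held 2 or more copies. HES1, lower in HeyC2, and HES4, lower in SKOV3, are printed because they hold the core (in capitals). NRARP and NOTCH3, both higher in SKOV3, are printed as members without it. JAG2, called lower in SKOV3, also lacks the core, and HES1, which holds it, was within 1.5-fold of the median in SKOV3. Whether the core goes with the direction of change was not tested. Positions were found by exact match on GRCh37, the build of the files. They are chr3:193853687-193853936 on the plus strand for HES1, chr1:935536-935565 on the minus strand for the 30 bases around the HES4 core, chr9:140196724-140196973 on the minus strand for NRARP and chr19:15311807-15312056 on the minus strand for NOTCH3.
HES1: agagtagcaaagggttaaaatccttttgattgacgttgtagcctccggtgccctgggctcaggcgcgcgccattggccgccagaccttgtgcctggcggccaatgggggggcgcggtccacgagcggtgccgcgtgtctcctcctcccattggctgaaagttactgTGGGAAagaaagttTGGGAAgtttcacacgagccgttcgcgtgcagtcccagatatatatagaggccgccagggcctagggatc
HES4: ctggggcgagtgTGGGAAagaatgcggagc
NRARP: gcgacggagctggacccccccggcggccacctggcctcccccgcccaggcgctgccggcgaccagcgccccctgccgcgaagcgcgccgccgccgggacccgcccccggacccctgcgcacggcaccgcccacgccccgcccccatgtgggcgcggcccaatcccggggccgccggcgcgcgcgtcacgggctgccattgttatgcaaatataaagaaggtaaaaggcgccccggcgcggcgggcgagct
NOTCH3: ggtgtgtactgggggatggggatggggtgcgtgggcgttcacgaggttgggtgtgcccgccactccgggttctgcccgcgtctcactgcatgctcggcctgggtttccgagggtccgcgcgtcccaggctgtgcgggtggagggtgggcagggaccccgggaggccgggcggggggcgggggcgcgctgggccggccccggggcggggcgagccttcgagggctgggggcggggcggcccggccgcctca

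TET1 acts on methylated CpG, so the number of CpG in these windows was counted as well. NRARP had 39 CpG, at percentile 97.5 of all promoters, and JAG2 had 38, HES4 35, NOTCH1 33, NOTCH2 29 and NOTCH3 28. The window of NOTCH2 is less certain, since its only exact match on chromosome 1 of GRCh37, at 145208859 to 145209108, lay outside NOTCH2. HES1 with 18 and JAG1 with 17 had the fewest among the members, above the median of 11 over all promoters. Members called higher with TET1 in either line (NOTCH3, JAG1, NRARP) and members called lower (HES1, HES4, JAG2) overlapped in CpG number. HEY1, also called higher, had no window, and the part of CpG number in the changes was not tested. Of the sites that HES and HEY proteins bind, CACGTG occurred in 0 of 8 members (6.5% of all promoters) and CACGCG in 2 of 8 (9.6%), JAG2 and HES1. These are matches of letters, and DNA methylation at them was not measured in these tables.

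The FPKM of each TET1 library had been multiplied by a constant that sets GAPDH equal to its control, 3.23 for HeyC2 and 1.35 for SKOV3. This constant was divided out before any value below was taken. GAPDH then stood at 5417.35 FPKM in control HeyC2 cells and 1674.92 with TET1, and at 2248.44 and 1670.90 in SKOV3. The transfected gene, TET1, was at 0.20 FPKM without and 0.52 with the plasmid for HeyC2, and at 0.43 and 1.80 for SKOV3. Both HeyC2 values lay below 1 FPKM, and no counting interval was given for TET1, so its rise in HeyC2 rests on a low signal. Depth, estimated from the spacing of low values within a range set beforehand, was between 6600000 and 7520000 fragments per library. The fit was loose, with a mean cosine of 0.257 to 0.471, where 1 would mean whole fragments. All fragment numbers and counting intervals rest on these depths. Across 14390 genes, log2 levels of the TET1 library and its control had a Pearson correlation of 0.966 in HeyC2 and 0.921 in SKOV3, against 0.754 to 0.789 between lines, which is a description of 4 libraries. Of 9 markers of ovarian cancer cells, 6 passed a mean of 1 FPKM in HeyC2 and 7 in SKOV3, and MUC16 was at or near 0 in all 4 libraries. In SKOV3 the keratins KRT7 and KRT19 stood at 1537.2 and 255.14 FPKM in the control and at 21.96 and 0.46 with TET1, and MSLN at 10.29 and 0.08. The other markers that passed in SKOV3 did not share this, with KRT8 at 559.93 and 774.61, KRT18 at 192.85 and 255.46, EPCAM at 15.39 and 16.10 and PAX8 at 74.59 and 131.08. In HeyC2, 3 of 6 markers were at least 1.5-fold higher (12.5% of all genes) and 0 of 6 were 1.5-fold lower (9.19%). The higher ones were KRT7 at 289.68 and 1124.57, MSLN at 46.55 and 77.52, and KRT19 at 0.62 and 1.59. KRT19 passed there only through the TET1 library. In HeyC2, KRT8 at 475.73 and 386.27, KRT18 at 377.55 and 378.83 and PAX8 at 128.11 and 194.74 stayed within 1.5-fold. The summed level of 5 fibroblast markers was 34.10 FPKM in SKOV3 with TET1, of which COL1A1 made up 27.66, against 0.32 for COL1A1 in the control, and it was 2.14 and 2.99 in HeyC2. The summed level of the 5 leukocyte markers was at most 0.61 FPKM in any library. Of 30 proliferation genes, 19 were at least 1.5-fold lower with TET1 (9.19% of all genes) and 2 higher (12.5%) in HeyC2. In SKOV3, 27 were lower (18.2% of all genes) and 0 higher (20.7%). The part of these shifts in the results below was not tested.

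**Figure D1:**
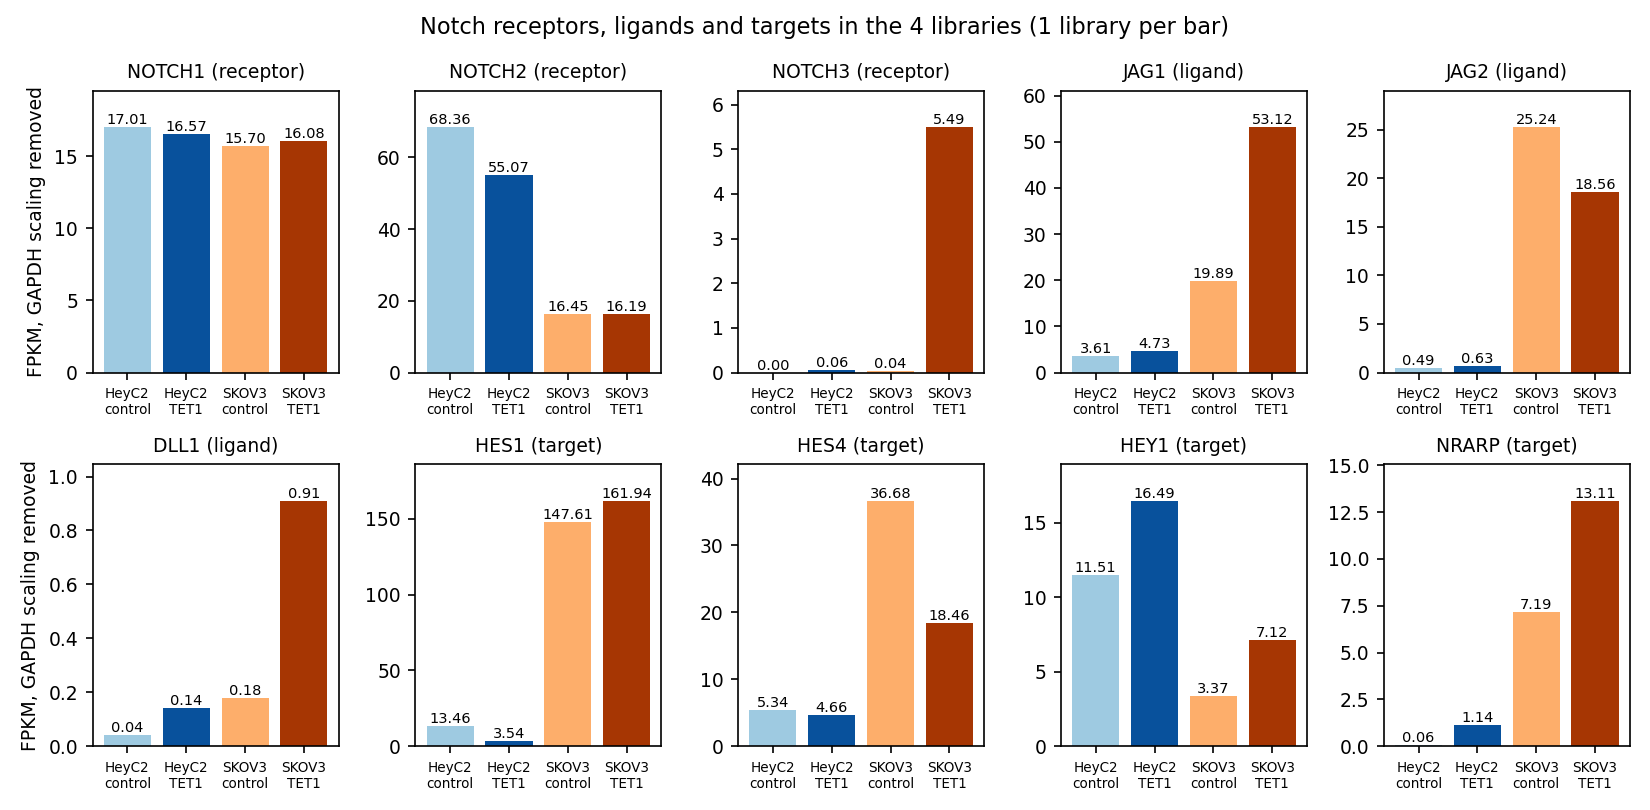
FPKM of the 10 members in the 4 libraries, with the GAPDH scaling of the TET1 libraries removed, 1 bar per library and a linear axis from 0 in each panel. HES1 stood at 13.46 and 3.54 in HeyC2 but at 147.61 and 161.94 in SKOV3, and NOTCH3 was above 1 FPKM in SKOV3 TET1 alone.

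Of the receptors, which receive the signal, NOTCH2 differed mainly between lines and NOTCH3 mainly with TET1 in SKOV3. NOTCH1 (chromosome 9, 139388885 to 139440500, GRCh37) was nearly level, with 17.01 FPKM in control HeyC2 cells and 16.57 with TET1, and with 15.70 and 16.08 in SKOV3. For NOTCH2 (chromosome 1, 120454176 to 120643366) the values were 68.36 and 55.07 FPKM in HeyC2 and 16.45 and 16.19 in SKOV3. NOTCH2 thus made up 80.1% of the summed receptor FPKM in the HeyC2 control and 51.1% in the SKOV3 control. Reads of NOTCH2 can be shared with the partial copy NOTCH2NL, listed at 21.01 and 19.26 FPKM in HeyC2 and at 3.10 and 4.87 in SKOV3. The level of NOTCH2 is uncertain to that extent.

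NOTCH3 (chromosome 19, 15269849 to 15311806) was listed at 0 in control HeyC2 cells and 0.06 FPKM with TET1, and at 0.04 and 5.49 FPKM in SKOV3. These levels equal about 0, 3, 2 and 308 fragments. Only the SKOV3 TET1 library stood clear of the counting limit, and there NOTCH3 ranked above 42.9% of the genes with any signal. The ratio of TET1 to control in SKOV3 was 137, with an interval of 45.3 to 1370 (exact binomial, 95%, from estimated fragments). Such intervals cover counting error only and not the spread between cultures. They belong to the plain ratio, from which the all-gene median was not subtracted. That median was itself above no change, at a log2 ratio of 0.06 in HeyC2 and 0.19 in SKOV3. NOTCH3 had a mean of at least 1 FPKM in SKOV3 through the TET1 library alone.

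Of the ligands, which sit on the sending cell, JAG1 and JAG2 were lower in HeyC2 than in SKOV3, and DLL1 was under 1 FPKM in all 4 libraries. JAG1 (chromosome 20, 10618332 to 10654647) was at 3.61 FPKM in control HeyC2 cells and 4.73 with TET1, and at 19.89 and 53.12 in SKOV3. The SKOV3 TET1 library was the highest of the 4. In SKOV3 the ratio of TET1 to control was 2.67 (counting interval 2.46 to 2.90), and in HeyC2 it was 1.31 (1.05 to 1.63). JAG2 (chromosome 14, 105607319 to 105635161) was at 0.49, 0.63, 25.24 and 18.56 FPKM in the same order, a ratio of 0.735 in SKOV3 (0.666 to 0.811). The ligand with the highest level in SKOV3 was therefore JAG2 in the control, with 55.7% of the ligand sum, and JAG1 with TET1, with 73.2%. DLL1 (chromosome 6, 170591294 to 170615653) was at 0.04, 0.14, 0.18 and 0.91 FPKM, or about 1, 3, 5 and 22 fragments, and its ratio in SKOV3 was 5.06 (1.74 to 16.0). It shares 370 exon bases with FAM120B on the opposite strand, which had 7.99 to 9.66 FPKM in the 4 libraries, and without strand information reads there cannot be told apart. Exons of JAG1, JAG2 and NRARP share 306, 469 and 73 bases with long non-coding RNAs that the tables do not list under a name of their own.

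Among the targets, HES1 (chromosome 3, 193853937 to 193856521), the most widely used readout of Notch activity, was at 13.46 FPKM in control HeyC2 cells and 3.54 with TET1, and at 147.61 and 161.94 in SKOV3. The HeyC2 TET1 library was the lowest of the 4, with about 33 fragments against 142 in its control. As deposited, with the GAPDH scaling in place, the HeyC2 TET1 value is 11.45 FPKM and the difference is largely hidden. The ratio was 0.263 in HeyC2 (counting interval 0.173 to 0.384) and 1.10 in SKOV3 (1.02 to 1.18). Relative to the all-gene median, HES1 in SKOV3 was not higher, at -0.06 on the log2 scale.

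HES4 (chromosome 1, 934342 to 935552), a related repressor, behaved otherwise, with 5.34, 4.66, 36.68 and 18.46 FPKM in the same order of libraries. Its ratio was 0.503 in SKOV3 (0.384 to 0.651) and 0.873 in HeyC2 (0.467 to 1.54), where it rests on about 29 and 22 fragments. HEY1 (chromosome 8, 80674606 to 80680092), a repressor best known from blood vessel development, was at 11.51, 16.49, 3.37 and 7.12 FPKM. It was the member target with the higher level in HeyC2, and its ratio of TET1 to control was above 1 in both lines, 1.43 in HeyC2 (1.17 to 1.75) and 2.11 in SKOV3 (1.49 to 3.07). NRARP (chromosome 9, 140194083 to 140196723), the feedback inhibitor, was at 0.06, 1.14, 7.19 and 13.11 FPKM. Its HeyC2 values correspond to about 1 and 19 fragments, a ratio of 19.0 with an interval of 3.40 to 887. In SKOV3 its ratio was 1.82 (1.46 to 2.29). HES1 made up 44.3% of the summed target FPKM in the HeyC2 control, whereas HEY1 made up 63.8% in HeyC2 TET1, and HES1 held 75.8% and 80.7% in the SKOV3 libraries.

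To place each member against all genes, the log2 ratio of TET1 to control was computed with a pseudocount of 1 on each FPKM, and the median of all genes with a mean of at least 1 FPKM in the line was subtracted. This median was 0.06 over 11896 genes in HeyC2 and 0.19 over 13016 genes in SKOV3. The mean of 1 FPKM was reached by 6 of 10 members in HeyC2 (all but NOTCH3, JAG2, DLL1 and NRARP) and by 9 of 10 in SKOV3 (all but DLL1). In HeyC2, 0 of 6 members were at least 1.5-fold higher than the median, a call met by 12.5% of all genes, and 1 of 6, HES1, was at least 1.5-fold lower, a call met by 9.19%. In SKOV3, 4 of 9 were higher (20.7% of all genes), NOTCH3 among them, which passed only through the library where it was high, and 2 of 9 were lower (18.2%). The median of the members that passed was -0.16 in HeyC2 and -0.06 in SKOV3, beside 0 for all genes by construction, and over all 10 members it was 0.05 and 0.22. Receptors, ligands and targets each held members on both sides of the median in SKOV3.

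HES1 was at -1.73 in HeyC2, lower than all but 0.5% of genes, and at -0.06 in SKOV3. NOTCH3 was at 2.45 in SKOV3, above 99.1% of genes, on a scale that a low control level compresses, since a pseudocount of 0.01 gives 6.57. JAG1 was at 1.18 in SKOV3 and 0.26 in HeyC2. HES4 was at -1.15 in SKOV3 and -0.22 in HeyC2. HEY1 was at 0.70 in SKOV3, 1.63-fold, and at 0.43 in HeyC2. JAG2 at -0.62, 1.53-fold lower, and NRARP at 0.59, 1.51-fold higher, lay just beyond the limit in SKOV3. NRARP in HeyC2 was at 0.96 but below the expression limit. NOTCH1 stood at -0.09 in HeyC2 and -0.16 in SKOV3, and NOTCH2 at -0.37 and -0.21. The call of JAG2 was lost in 4 of 9 other ways of processing, without a filter, with a filter at 5 FPKM, with upper-quartile scaling and with centring on the 500 genes nearest in expression. Centring on those genes also ended the calls of HEY1 (0.48) and NRARP (0.55).

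**Figure D2:**
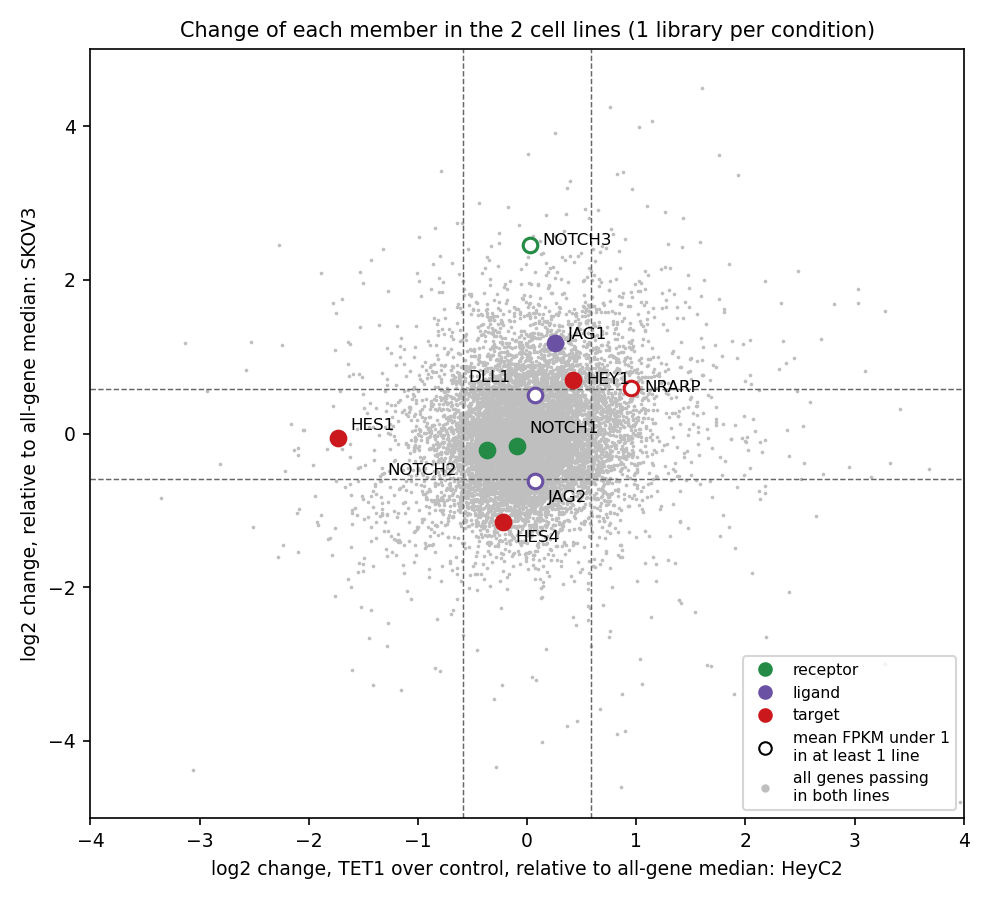
Change of each member in HeyC2 (x axis) and SKOV3 (y axis) as log2 of TET1 over control relative to the all-gene median, with dashed lines at 1.5-fold, over the 11136 genes that passed in both lines (grey, 5 of them beyond the axes). HES1 lies alone at the left at -1.73 and NOTCH3 at the top at 2.45, while open symbols mark members under 1 FPKM in at least 1 line.

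Without TET1 the lines differed more widely. The control libraries come from separately deposited tables, so the levels are set side by side with the median of all genes subtracted. With SKOV3 over HeyC2, 5 of the 8 members that passed were at least 1.5-fold higher, against 28.6% of all genes, and 2 of 8 were lower, against 29.0%. JAG2 and NRARP, counted among the 5, were under 1 FPKM in the HeyC2 control and passed only through the SKOV3 control where they were high. JAG2 was higher by 3.87 on the log2 scale, HES1 by 3.09, NRARP by 2.68, HES4 by 2.30 and JAG1 by 1.91. NRARP rests on about 1 fragment in the HeyC2 control, and its ratio was 120 with a counting interval of 23.6 to 5327. NOTCH2 was at -2.26 and HEY1 at -1.79, both lower in SKOV3. NOTCH1, at -0.38, was within 1.5-fold. The SKOV3 control thus had the higher JAG1, JAG2, HES1, HES4 and NRARP, and the HeyC2 control the higher NOTCH2 and HEY1.

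The rest of the pathway was read from a list of 82 further genes, written from general knowledge, of which 81 were in the tables. In HeyC2, 62 passed, 9 were at least 1.5-fold higher and 8 lower, with a median of -0.12. In SKOV3, 69 passed, 17 were higher and 11 lower, with a median of -0.06. The shares of all genes called, given above, were 12.5% higher and 9.19% lower in HeyC2 and 20.7% and 18.2% in SKOV3.

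Most of the nuclear complex stood within 1.5-fold of the median. RBPJ, the DNA-binding partner, was at 37.83 and 36.98 FPKM in HeyC2 and at 13.78 and 10.74 in SKOV3, a relative change of -0.09 and -0.52. Of the 8 genes of the nuclear complex, none was at least 1.5-fold higher in either line (0 of 8 in HeyC2 and 0 of 7 passing in SKOV3). Of the coactivator acetyltransferases, KAT2B was at -1.06 in HeyC2 and CREBBP at -0.87 in SKOV3. These were the only lower genes of the complex, against 9.19% of all genes lower in HeyC2 and 18.2% in SKOV3. ADAM10, the protease that cuts the bound receptor, was at -0.24 in HeyC2 and -0.06 in SKOV3.

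Fringe enzymes add sugars to Notch receptors and thereby alter which ligand they respond to. In SKOV3, MFNG was at 0.76 FPKM in the control and 8.12 with TET1, a relative change of 2.18, so it passed through the TET1 library alone. RFNG was at 1.08 in SKOV3 and 0.72 in HeyC2. LFNG was at 0.13 in SKOV3 and 0.86 in HeyC2, where it passed only through the TET1 library. NEURL1, a ubiquitin ligase acting on ligands, was at 24.03 and 4.92 FPKM in SKOV3, a relative change of -2.27, and EPN2, an epsin of the endocytic machinery, was at 1.06. In HeyC2 the related NEURL2 was at 1.03.

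Of 9 further genes listed with the HES and HEY family, among them the related BHLHE40 and BHLHE41, 6 passed in SKOV3. HES6, HES7, HEY2 and BHLHE41, 4 of the 6, were at least 1.5-fold higher (20.7% of all genes) and 0 lower, HES2 was at 0.27 and BHLHE40 at -0.41. HES7 and HEY2 passed only through the TET1 library where they were high. In HeyC2, 0 of 5 were higher (12.5% of all genes) and 1 was lower (9.19%), with a median of -0.29. HES7 was at 0.37 FPKM without and 5.66 with TET1 in SKOV3, HEY2 at 0.23 and 1.86, HES6 at 9.45 and 18.48, and BHLHE41 at 1.09 and 8.27. DTX1, a ubiquitin ligase that binds the Notch intracellular part, was at 0.27 and 8.23 FPKM, a relative change of 2.67. DTX1 also passed in SKOV3 through the TET1 library alone. The corepressor gene TLE2 was at 5.41 and 22.95 FPKM, a relative change of 1.71. In HeyC2, DTX1 and HEY2 were listed at 0 in both libraries, and BHLHE41 was lower with TET1, at -1.51.

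**Figure D3:**
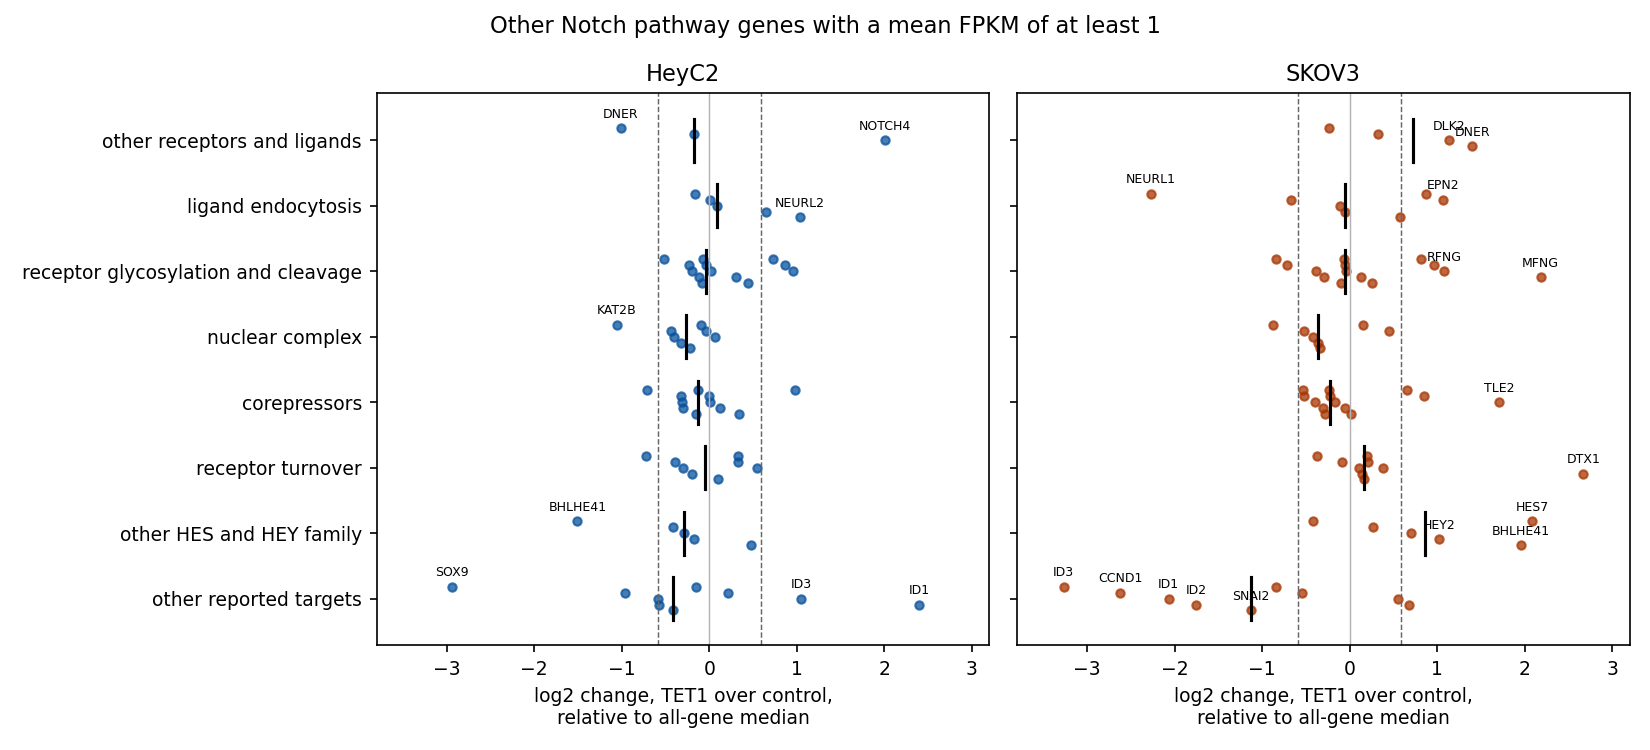
Relative log2 change of the other Notch pathway genes with a mean of at least 1 FPKM, by functional list, in HeyC2 (left) and SKOV3 (right), with 1 point per gene, a black bar at the list median and dashed lines at 1.5-fold. Genes at least 2-fold from the median are named, among them DTX1 at 2.67 in SKOV3 and SOX9 at -2.94 in HeyC2.

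Receptors and ligands outside the 10 members also differed with TET1. NOTCH4, a receptor best known from endothelial cells, was at 4.37 FPKM in the HeyC2 control and 21.45 in HeyC2 TET1, a relative change of 2.01, and at 0.04 and 0.07 in SKOV3. The endothelial cadherin gene CDH5 moved with it, at 18.85 and 94.63 FPKM in HeyC2. It was the only 1 of 5 endothelial markers that passed in HeyC2 (PECAM1, KDR, TEK and VWF did not), and the part of other cells was not tested. The non-canonical ligand gene DNER was at 25.79 and 12.82 FPKM in HeyC2, a relative change of -1.01. In SKOV3 it was at 0.36 and 3.10 FPKM, a relative change of 1.40, and passed only through the TET1 library. DLK2 was at 1.13 in SKOV3.

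Genes reported as Notch targets elsewhere, which many other signals also control, were at least 1.5-fold lower in SKOV3 in 6 of 9 cases (18.2% of all genes) and higher in 1 (20.7%). In HeyC2, 3 of 9 were lower (9.19%) and 2 higher (12.5%). CCND1, the gene of cyclin D1, was at 145.43 and 26.23 FPKM in SKOV3, a relative change of -2.62, and SNAI2 was at -1.12 in SKOV3. ID1, ID2 and ID3, classical BMP targets, were at -2.07, -1.75 and -3.27 in SKOV3, whereas ID1 and ID3 were at 2.40 and 1.05 in HeyC2. SOX9 was at 20.15 and 1.88 FPKM in HeyC2, a relative change of -2.94.

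The genes next to each member were read against the shares of all genes called, 20.7% higher and 18.2% lower in SKOV3 and 12.5% and 9.19% in HeyC2. Neighbours in gene order can lie far from the member. They span 187871072 to 195638816 on chromosome 3 for HES1 in HeyC2, and 5931298 to 17549865 on chromosome 20 for JAG1 in SKOV3. In HeyC2, the 20 nearest expressed genes around HES1 had a median of 0.21 and none was 1.5-fold lower, unlike HES1. Around NOTCH3 in SKOV3 the median was -0.61 and 11 of 20 neighbours were lower, the direction opposite to NOTCH3. HES4 in SKOV3 lay among lower genes, with a median of -0.50 and 9 of 20 neighbours lower, and so did JAG2, with -0.39 and 8 of 18. For HEY1 in SKOV3 the neighbours had a median of 0.20, with 7 of 20 higher and 0 lower. For JAG1 it was 0.19, with 6 of 20 higher and 3 lower. For NRARP in SKOV3 it was -0.12, with 6 of 20 higher and 2 lower. The part of the region in any of these changes was not tested.

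**Figure D4:**
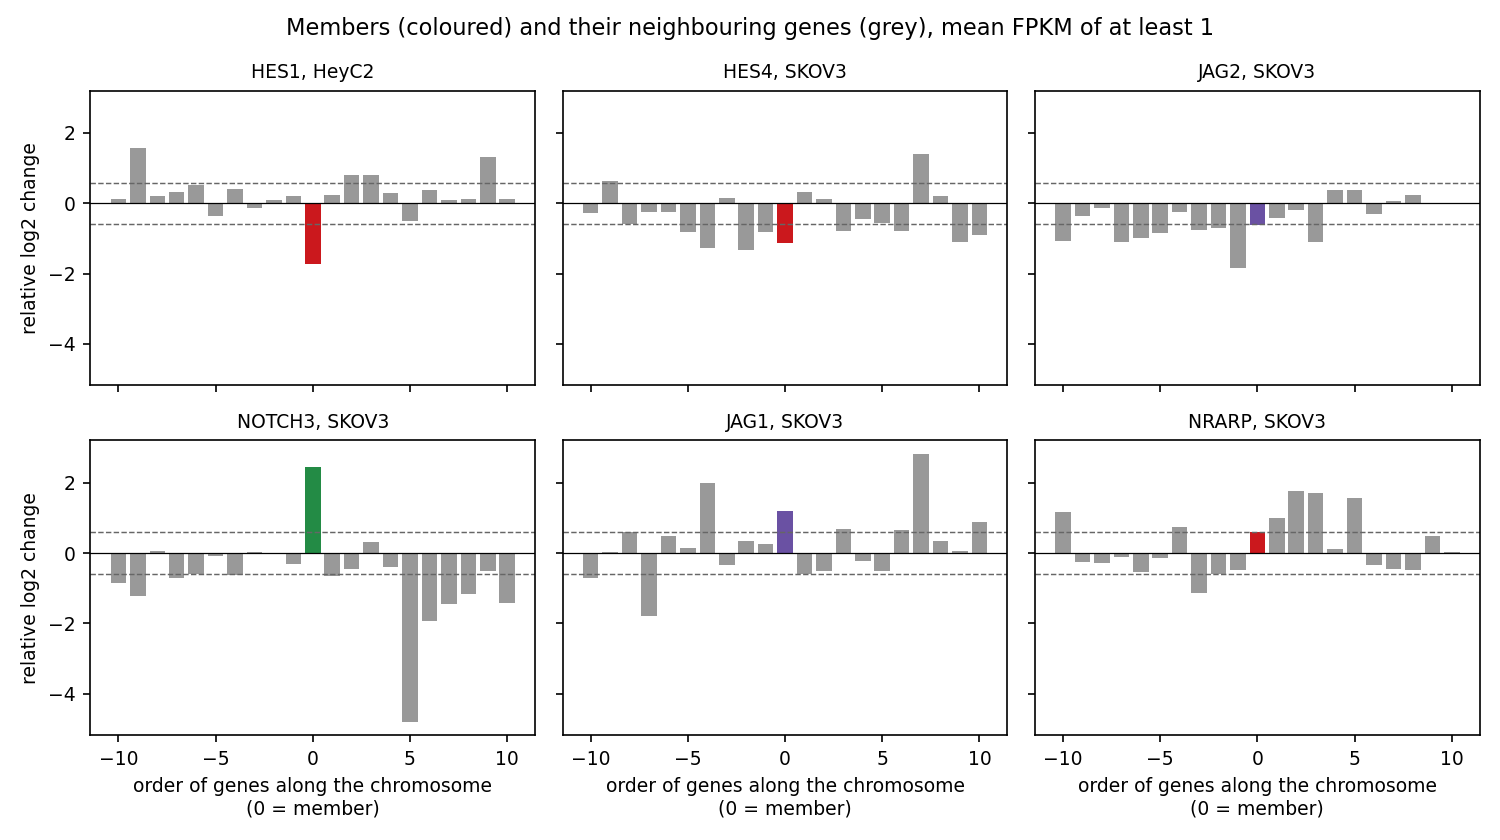
Relative log2 change of 6 members (coloured bars at 0) and of the expressed genes on either side, in the order of the chromosome, with dashed lines at 1.5-fold. HES1 in HeyC2 and NOTCH3 in SKOV3 point away from their neighbours, whereas HES4 and JAG2 in SKOV3 share the direction of theirs.

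Genes with the most similar course over the 4 libraries were found by the distance of their centred log2 levels, among 11136 genes. STK10 was nearest to NOTCH2 (distance 0.05), followed by FAHD2B and ERAP1, and 106 genes lay within 0.5. LINC00923, REEP2 and RARRES3 were nearest to JAG1 (0.18 to 0.33), with 7 genes within 0.5. For HES1 no gene lay that near, and the closest were HNRNPLL (0.61), DSP (0.62) and APOL1 (0.69). With 4 libraries such likeness is a description of these values only.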

How the data were processed

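RNA-seq data of HeyC2 and SKOV3 cells with TET1 or empty plasmid were used, 1 library per condition. The deposited values are FPKM, which the authors obtained by aligning paired-end reads to hg19 with Bowtie2 2.2.6 and quantifying with RSEM 1.2.17. The annotation is not given in the sources used here. In each TET1 column, all distinct values below 40 FPKM (100%, 1220 in HeyC2 and 2637 in SKOV3) lay on a grid of 0.01 times a constant, so that constant was recovered and divided out. A pseudocount added to scaled values would place low genes below the median.

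Changes are log2((TET1 + 1)/(control + 1)) minus the median of genes with a mean of at least 1 FPKM, without any test. Fragments were estimated from GENCODE transcript lengths on GRCh37 (less a mean fragment length of 170), at the depth where low FPKM of single-transcript genes fall nearest to whole fragments, so they are approximate. Of the symbols, 85.4% were matched to GENCODE. Named genes were the members, pathway genes at least 2-fold from the median, and the 3 genes most like NOTCH2, JAG1 and HES1. Pathway genes between these limits, or of other levels, such as RBPJ, ADAM10, CREBBP, LFNG and HES6, were named after their values were seen. The members and lists were chosen with earlier results of these data known. Alternatives changed the pseudocount, filter, scaling, centring, fold threshold, GC content and length correction, or left the GAPDH scaling in place. Calculations used Python 3.11.15, numpy 2.4.6, pandas 2.3.3, scipy 1.17.1 and matplotlib 3.10.9 and were tested on simulated data.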

Additional observations from a re-analysis of the deposited data

How the results depend on the processing

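Within a line no fit could be made, as each condition has 1 library there and the labels carry no replicate numbers. A fit that pairs TET1 and control by cell line over both lines, with 1 residual degree of freedom, was not run. The alternatives for the differences between controls and for the other pathway genes were chosen after seeing the data. Of 133 values of single members under alternatives, 131 moved by less than the SD of the 500 genes nearest in expression, and 0 changed the sign of a called member. The exceptions were NOTCH3 in SKOV3, at 5.11 with a pseudocount of 0.1 and 6.57 with 0.01.
Without a filter on low values 1 member was higher in HeyC2 (NRARP), and 1 rather than 2 was lower in SKOV3. The number lower in SKOV3 was also 1 with a mean of at least 5 FPKM, with upper-quartile scaling, with centring on the 500 nearest genes and at a threshold of 2-fold. The number higher in SKOV3 was 2 rather than 4 with that centring and at 2-fold. The median of the members turned positive without a filter, at 0.11 in HeyC2 and 0.41 in SKOV3. In SKOV3 it was also positive with upper-quartile scaling (0.12), with that centring (0.315) and with GC content and length correction (0.04). At 1.2-fold, 1 member was higher and 2 were lower in HeyC2. In the other pathway genes, 4 were higher and 4 lower in HeyC2 at 2-fold, 16 and 21 at 1.2-fold, and 5 lower with a mean of at least 5 FPKM. In SKOV3, 10 were higher and 6 lower at 2-fold, 25 lower at 1.2-fold, and 9 higher with a mean of at least 5 FPKM, where fewer genes are tested. The cause of the remaining changes was not tested. The counts between controls stayed within 1.5 times under all 10 alternatives. Genes under 1 FPKM such as DLL1, NOTCH3 and NRARP in HeyC2 rest on few fragments.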
